A study of Homo sapiens with 6 samples.

Results

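The miR-30 family was taken as every deposited miRNA whose name begins with hsa-miR-30a, 30b, 30c, 30d or 30e. This gave 10 of the 413 miRNAs. The guide (5p) strands were hsa-miR-30a-5p, hsa-miR-30b-5p, hsa-miR-30c-5p, hsa-miR-30d-5p and hsa-miR-30e-5p. The 5 passenger (3p) strands were hsa-miR-30a-3p, hsa-miR-30c-1-3p, hsa-miR-30c-2-3p, hsa-miR-30d-3p and hsa-miR-30e-3p. The small RNA came from MDA-MB-231 cells, a long-cultured line of human breast cancer without hormone receptors or HER2 amplification (triple negative). Cells treated with Withaferin A (WA), a steroidal lactone of the plant Withania somnifera, at 2 µM for 24 h (n = 3 libraries) were compared with control cells without WA (n = 3). The study describes the controls as DMSO vehicle, whereas the labels call them untreated, and they are called vehicle here. The study calls the replicates independent. The labels do not say whether they were separate cultures, so each test measures the spread between these libraries.

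A microRNA hairpin is cut into a duplex. One strand, the guide, is usually kept in the Argonaute complex, and the passenger strand is usually degraded. The guide recognizes target messages mainly through its seed, bases 2 to 8 from the 5′ end. The miR-30 guides share a seed and come from paired hairpins at separate genomic sites. They are known in breast epithelium and breast cancer for restraining mesenchymal traits, invasion and self-renewal, with SNAI1, vimentin and UBC9 among the reported targets. Target messages and proteins were not measured in these libraries.

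Libraries differed in depth and did not group by treatment alone. Summed over the 413 deposited miRNAs, vehicle libraries held 710878 to 4778066 reads and WA libraries 156442 to 2232934. The study describes these miRNAs as the ones expressed in both groups. Read totals, shares of a library and percentages of tested miRNAs therefore cover these miRNAs only, and reads of other miRNAs are not included. The values below are reads divided by a size factor of each library, called normalized values, and the reads behind them were inferred from the steps between values. A count of 0 allows up to 3 reads, a normalized value from 0.857 to 4.06 in the vehicle libraries and of 17.4, 5.36 and 2.25 in WA replicates 1 to 3, for counting error only. WA replicates 1 and 2 resembled each other, with a Pearson correlation of log2 values over the 413 miRNAs of 0.964. WA replicate 3 had lower correlations with them (0.630 and 0.641) than with the vehicle libraries (0.772 to 0.797), so the values of the members are given with and without it. Cell type markers also differed between libraries. Of 6 epithelial miRNAs sought, 4 were in the table, and they were at 0 in both WA replicates 1 and 2. Their summed normalized value was 192 to 1820 in the vehicle libraries and 1240 in WA replicate 3. The 5 markers of basal or mesenchymal breast lines summed to 179707 to 204986 in the vehicle libraries and to 96565, 101626 and 466896 in WA replicates 1 to 3. Of 7 markers of stroma, muscle and endothelium, 4 were in the table. They summed to 228 to 1802 in the vehicle libraries and 4522 to 5934 in the WA libraries, through different members. miR-199a-3p was at 0 to 8.28 with vehicle and at 3670, 4499 and 66.1 after WA, whereas miR-126-3p was at 211 to 1753 with vehicle and at 58.0, 17.9 and 5834 after WA. Of 6 blood cell miRNAs 1 was in the table, miR-486-5p, at 492 to 911 with vehicle and at 0, 5.36 and 1223 after WA. The liver marker miR-122-5p was low, at 0.857 to 10.8 with vehicle and at 0, 5.36 and 14.3 after WA. The neuron marker miR-124-3p was not in the table. miR-155-5p was at 0 to 2.71 in the vehicle libraries and 3.01 in WA replicate 3 but at 26488 and 24844 in WA replicates 1 and 2. The part of these differences in the miR-30 values was not tested, nor whether all 6 libraries came from the same stock of cells. In bulk RNA, fewer cells of a type and less RNA per cell cannot be told apart.

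The mature sequences show how closely the members resemble each other, which bears on how reads were assigned to them. Sequences are from RefSeq on GRCh38.p14, written 5′ to 3′, with the seed in capitals, and 7 of the 10 members were matched.
hsa-miR-30a-5p: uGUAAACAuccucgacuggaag
hsa-miR-30e-5p: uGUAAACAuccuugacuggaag
hsa-miR-30c-5p: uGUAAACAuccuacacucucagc
hsa-miR-30a-3p: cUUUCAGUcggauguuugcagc
hsa-miR-30e-3p: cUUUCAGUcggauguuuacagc
hsa-miR-30c-2-3p: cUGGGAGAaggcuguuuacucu
hsa-miR-30c-1-3p: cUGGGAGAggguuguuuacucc

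The 3 guides shown shared the seed GUAAACA, and no other of the 368 miRNAs with a matched sequence held it. The passenger strands of miR-30a and miR-30e shared UUUCAGU, and both miR-30c passengers shared UGGGAGA. Counted from 1 at the 5′ end, miR-30a-5p and miR-30e-5p differed by a single substitution, C13U, and miR-30a-3p and miR-30e-3p by G18A. The 2 miR-30c passengers differed by 3 substitutions, A9G, C12U and U22C. The study assigned reads by homology and alignment without gaps (BLAST) to human mature miRNAs of miRBase. How reads that match more than 1 of such close sequences were counted is not given in the sources used here.

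The hairpins of 4 genes give the loci that the results turn on. MIR30A lies at chr6:71403551-71403621 and MIR30C2 at chr6:71376960-71377031, both on the minus strand and 26519 bases apart. In the GENCODE release 44 annotation MIR30A overlapped 11 transcripts of the long noncoding gene LINC00472 and none of their exons, so it is intronic. MIR30C2 overlapped 9 transcripts of the same gene and an exon of 1 of them. MIR30E at chr1:40754355-40754446 and MIR30C1 at chr1:40757284-40757372, both on the plus strand and 2837 bases apart, lie in introns of NFYC, which encodes a subunit of the CCAAT-binding factor NF-Y. The guide miR-30c-5p is cut from both MIR30C2 and MIR30C1 with the same sequence, whereas each miR-30c passenger comes from one of these hairpins. The hairpins of MIR30A and MIR30E read as follows, with the mature strands in capitals.
MIR30A: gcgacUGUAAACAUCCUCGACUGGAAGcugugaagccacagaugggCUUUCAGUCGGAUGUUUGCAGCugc
MIR30E: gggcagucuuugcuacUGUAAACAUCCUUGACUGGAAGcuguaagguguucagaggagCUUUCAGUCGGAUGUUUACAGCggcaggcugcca

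With all 6 libraries, no miR-30 member passed the test of WA against vehicle. All 10 members were among the 327 miRNAs that passed the filter (3 or more libraries with a normalized value of 10 or higher), and 7 reached 10 in every library. By limma on log2(normalized value + 1) with Benjamini-Hochberg adjustment, 0 members had an adjusted p under 0.05, against 18 of the 327 tested miRNAs, or 5.5%. That count over all miRNAs rested on single libraries, since it was 147 without WA replicate 3 and 0 without any one of vehicle replicates 2 and 3 and WA replicates 1 and 2. At an unadjusted p under 0.05 the count was also 0, against 26.3% of the tested miRNAs. The limma adjusted p of the members ran from 0.198 to 0.912. The log2 fold change was under 0 for 5 members and over 0 for 5, with a median of -0.19 beside -0.91 over all tested miRNAs. This contrast turned with the filter, since the medians were -0.60 for the 7 members and -0.10 for all miRNAs that reached 10 in every library. For members with low values, the size of the fold change depends on the pseudocount. For miR-30d-3p, among the members over 0, the sign does too (1.34 with 0.1 added, 0.30 with 1 and -0.32 with 10). miR-30d-5p was the 1 member with every WA library under every vehicle library, a separation that 19.6% of the tested miRNAs showed. In the opposite direction the count was 0 members, against 7.65% of the tested miRNAs. Without WA replicate 3, 3 members were called lower in WA, where 35.2% of the tested miRNAs were. In that fit 1 member was called higher, where 9.79% were. WA replicate 3 was singled out in these same data by its likeness to the vehicle libraries. Leaving it out favours larger differences, so limma adjusted p-values without it describe these libraries and do not test WA.

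**Figure D1:**
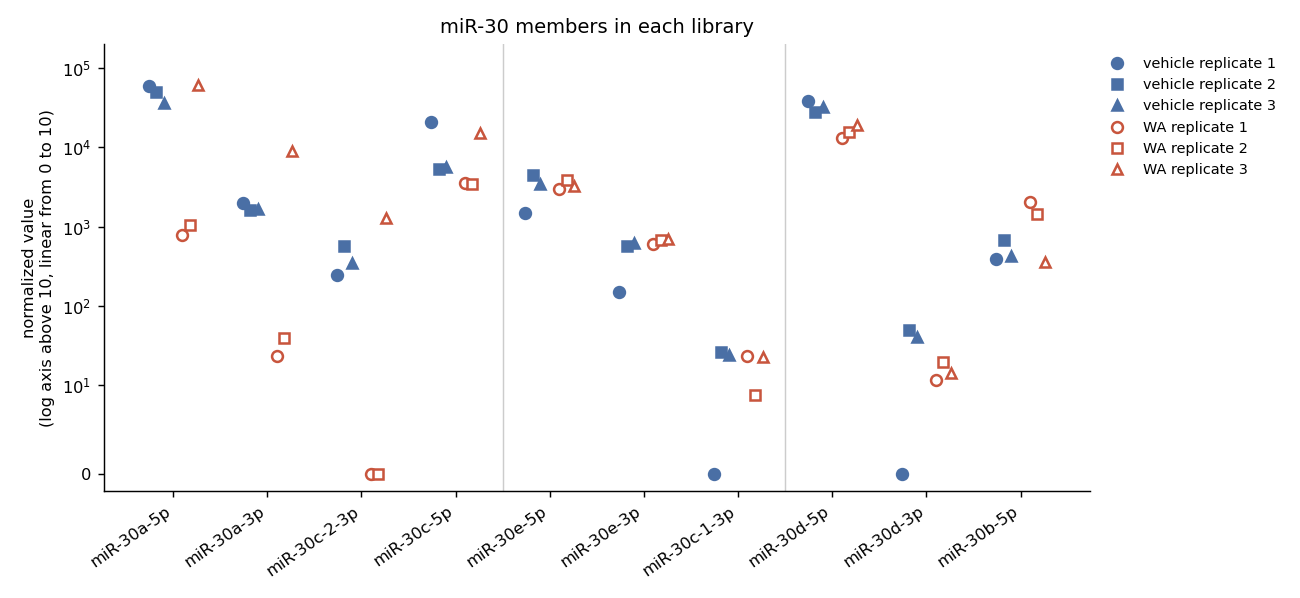
Normalized value of each miR-30 member (horizontal axis) in each library, on an axis that is linear from 0 to 10 and logarithmic above. Filled symbols are vehicle and open symbols WA libraries, and grey lines set apart the members of MIR30A and MIR30C2 with miR-30c-5p (left), the MIR30E strands and miR-30c-1-3p (middle), and miR-30d and miR-30b (right). miR-30a-5p, miR-30a-3p and miR-30c-2-3p lie far under the other libraries in WA replicates 1 and 2, at 0 for miR-30c-2-3p.

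The members from MIR30A were low in WA replicates 1 and 2 and not in WA replicate 3. miR-30a-5p, the most abundant guide of the family in vehicle-treated cells, reached a normalized value of 59101, 49072 and 35791 with vehicle (replicates 1 to 3). After WA it was at 783, 1061 and 60876. Relative to the vehicle mean, WA replicates 1 and 2 held 1.63% and 2.21% and WA replicate 3 held 127%, so the groups overlapped because of a single library. The limma fit gave a log2 fold change of -3.67 ± 1.60 (SE, standard error) and an adjusted p of 0.198. Without WA replicate 3 it was -5.69 ± 0.484 (SE) with a limma adjusted p of 0.000862. It was -2.55 without WA replicate 1 and -2.77 without WA replicate 2. Among all 413 miRNAs its level ranked 3, 4 and 5 in the vehicle libraries, 73 and 69 in WA replicates 1 and 2, and 9 in WA replicate 3.

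The passenger strand of the same hairpin followed the guide. miR-30a-3p was at 1977, 1637 and 1653 with vehicle, against 23.2, 39.3 and 8865 in WA replicates 1 to 3. The low values rest on 4 and 22 reads, against 1460 to 5732 reads in the vehicle libraries. WA replicate 3 lay above every vehicle library and WA replicates 1 and 2 below every one. The limma fit gave -3.09 ± 2.09 (SE) on the log2 scale, adjusted p 0.378. Without WA replicate 3 it was -5.81 ± 0.485 (SE), with a limma adjusted p of 0.000862. The change was -1.55 without WA replicate 1 (limma adjusted p 0.773) and -1.92 without WA replicate 2 (limma adjusted p 0.672).

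miR-30c-2-3p, the passenger strand of the neighbouring MIR30C2 hairpin, was also low in WA replicates 1 and 2 and highest in WA replicate 3. Its vehicle values were 247, 561 and 345, and it was at 0 in both WA replicates 1 and 2, and at 1269 in WA replicate 3. Over all 6 libraries limma gave a log2 fold change of -5.07 ± 2.72 (SE) and an adjusted p of 0.278. With WA replicate 3 left out the limma adjusted p became 0.000862. Set against the mean value of 3 reads in WA replicates 1 and 2, the vehicle mean was 33.8-fold higher and the lowest vehicle library 21.7-fold higher. The fitted change was -3.35 without WA replicate 1 and also without WA replicate 2.

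The strands from the NFYC introns did not show this split of the libraries. miR-30e-5p was at 1479, 4451 and 3425 with vehicle, against 2957, 3813 and 3233 in the WA libraries. All 3 WA values lay within the vehicle range. The limma fit gave a log2 fold change of 0.23 ± 0.654 (SE) and an adjusted p of 0.816, and without WA replicate 3 it was 0.25 ± 0.609 (SE). Vehicle replicate 1 had the lowest value, and without it the log2 fold change was -0.24. miR-30e-3p was at 152, 573 and 630 with vehicle, against 603, 670 and 691 in the WA libraries. Its groups overlapped, and limma gave 0.78 ± 0.793 (SE) on the log2 scale, adjusted p 0.536, and 0.74 ± 0.755 (SE) without WA replicate 3. It was 0.12 without vehicle replicate 1, the library with the lowest value. miR-30c-1-3p was low, with 0, 91 and 79 reads in vehicle replicates 1 to 3 against 4, 5 and 30 after WA. Its normalized values were 0, 26.0 and 24.1 with vehicle, against 23.2, 8.93 and 22.5 in the WA libraries. Vehicle replicate 1 lay apart, since a count of 0 there allows a value of up to 4.06. The limma log2 change was 1.02 ± 1.501 (SE), adjusted p 0.643, and 0.82 without WA replicate 3.

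miR-30c-5p, the guide with a copy in each locus, stayed abundant in libraries where miR-30c-2-3p was at 0. It was at 20926, 5328 and 5703 with vehicle, against 3531, 3454 and 14916 in WA replicates 1 to 3. WA replicates 1 and 2 were under every vehicle library, and WA replicate 3 was second to vehicle replicate 1. The limma fit gave a log2 fold change of -0.60 ± 0.891 (SE) and an adjusted p of 0.644. It was -1.30 ± 0.733 (SE) without WA replicate 3, with a limma adjusted p of 0.202, and 0.04 without vehicle replicate 1. For each read of miR-30c-2-3p there were 84.9, 9.49 and 16.5 reads of miR-30c-5p in the vehicle libraries and 11.8 in WA replicate 3. With miR-30c-2-3p set to 3 reads there were at least 203 in WA replicate 1 and 644 in WA replicate 2. The log2 ratio of miR-30c-2-3p to miR-30c-1-3p differed by -6.09 between WA and vehicle (two-sided exact permutation p = 0.3). Its size was set by the value added to zeros, at -9.36 with 0.1 added and -3.13 with 10, and by single libraries, at -9.33 without WA replicate 3 and -4.15 without WA replicate 1. Both strands had at most 5 reads in WA replicates 1 and 2. The reads of miR-30c-5p cannot be divided between its loci from these values.

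The paired miRNAs miR-30d and miR-30b lay in opposite directions in WA replicates 1 and 2. miR-30d-5p, the second most abundant guide in the vehicle group, was at 37779, 27573 and 31987 with vehicle, against 12957, 15462 and 19174 in the WA libraries. Every WA library was under every vehicle library, WA replicate 3 included. The limma fit gave -1.04 ± 0.637 (SE) on the log2 scale, adjusted p 0.341. With each library left out in turn it stayed between -1.18 and -0.90, with limma adjusted p from 0.0981 to 0.626. miR-30b-5p was at 386, 681 and 426 with vehicle, against 2052, 1435 and 361 in WA replicates 1 to 3. WA replicates 1 and 2 lay above every vehicle library and WA replicate 3 below every one. The limma fit gave a log2 fold change of 1.08 ± 0.838 (SE) and an adjusted p of 0.436. Without WA replicate 3 the log2 fold change of miR-30b-5p was 1.83 ± 0.487 (SE), with a limma adjusted p of 0.0277. The change was 0.58 without WA replicate 1 (limma adjusted p 0.799) and 0.83 without WA replicate 2 (limma adjusted p 0.699). miR-30d-3p, the passenger of miR-30d, was at 0, 50.3 and 40.7 with vehicle (0, 176 and 133 reads) against 11.6, 19.7 and 14.3 after WA (2, 11 and 19 reads). The vehicle libraries lay on both sides of all WA libraries. The limma log2 change was 0.30 ± 1.66 (SE), adjusted p 0.912, and 0.32 without WA replicate 3. Without vehicle replicate 1, the library at 0, the log2 change was -1.54. The mean normalized value also lay in that direction, at 30.3 with vehicle and 15.2 after WA.

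**Figure D2:**
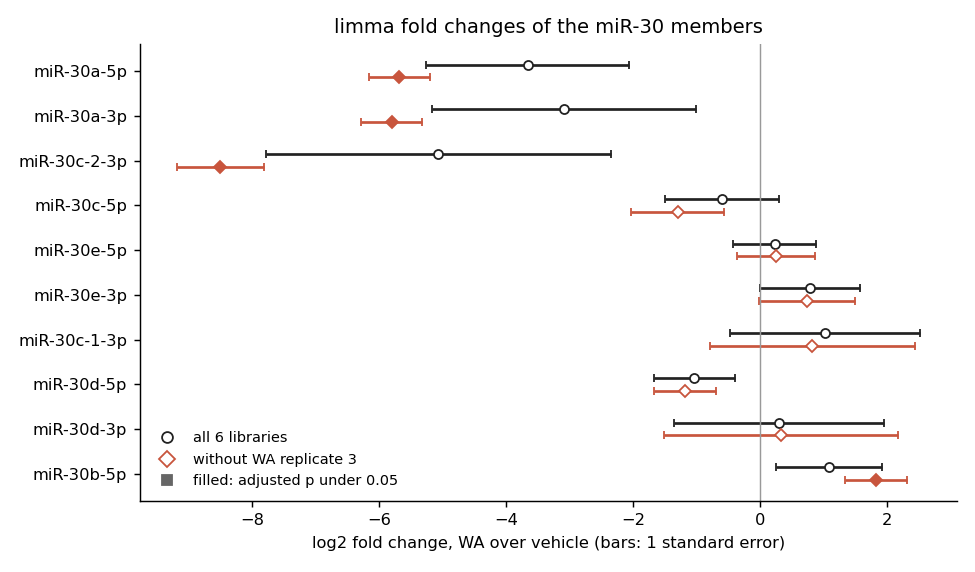
Log2 fold change of WA over vehicle (horizontal axis) for each miR-30 member, fitted by limma with all 6 libraries (circles) and without WA replicate 3 (diamonds), with bars of 1 standard error and filled symbols at an adjusted p under 0.05. The 4 filled diamonds are miR-30a-5p, miR-30a-3p, miR-30c-2-3p and miR-30b-5p, and the fitted size for miR-30c-2-3p depends on the pseudocount because its remaining WA libraries are at 0.

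Because the guides share their seed, their summed reads and the share of each were compared within libraries. The printed mature strands are 22 or 23 bases long, so reads were compared between guides without a correction for length. In the vehicle group the order of the levels was miR-30a-5p, miR-30d-5p, miR-30c-5p, miR-30e-5p and miR-30b-5p in each of the 3 libraries. Between neighbours in that order, the vehicle ranges overlapped for miR-30a-5p and miR-30d-5p and for no other pair. WA replicate 3 had the same order. In WA replicates 1 and 2 miR-30d-5p was first and miR-30a-5p last.

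miR-30a-5p made up 49.4% (95% Wilson interval 49.1 to 49.7), 56.3% (56.2 to 56.5) and 46.3% (46.1 to 46.5) of the guide reads in vehicle replicates 1 to 3. Its share was 3.51% (2.98 to 4.14), 4.21% (3.89 to 4.55) and 61.8% (61.5 to 62.0) in WA replicates 1 to 3. The group means were 50.7% ± 5.15 (SD, n = 3) and 23.2% ± 33.4 (SD, n = 3). The difference of mean log2 shares was -2.38 (two-sided exact permutation p = 0.4), and -3.72 without WA replicate 3. With 3 libraries against 3 the smallest p this test allows is 0.1, and 0.2 with a library left out. In all 11 shares and ratios were compared in this way, and after Benjamini-Hochberg adjustment over them the exact permutation p was 0.367 for 9, 0.44 for the share of miR-30a-5p and 0.7 for the miR-30a guide to passenger ratio. The share of miR-30d-5p was 31.6% to 41.4% in the vehicle libraries and 58.2%, 61.3% and 19.5% in WA replicates 1 to 3. miR-30e-5p held 1.24% to 5.11% of the guide reads in the vehicle libraries, 13.3% and 15.1% in WA replicates 1 and 2, and 3.28% in WA replicate 3. miR-30b-5p held 0.323% to 0.782%, then 9.21%, 5.69% and 0.366%. The share of miR-30c-5p, from 13.7% to 15.8% in the WA libraries, lay within the vehicle range of 6.12% to 17.5%. The widest 95% Wilson interval of these guide shares was ±1.56 percentage points. These intervals cover counting error only.

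**Figure D3:**
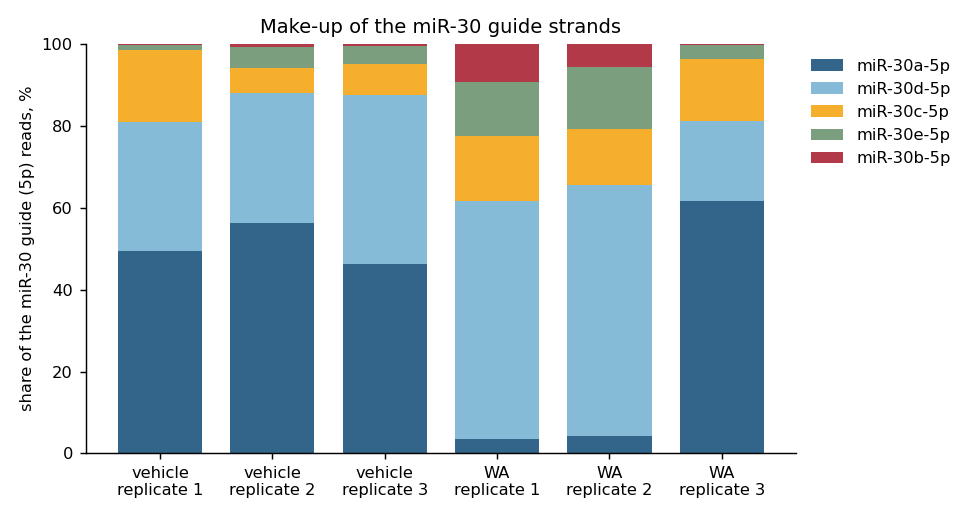
Share of the summed miR-30 guide (5p) reads held by each guide, in percent (vertical axis), in each vehicle and WA library (bars). miR-30a-5p holds 46.3% to 56.3% in the vehicle libraries and 61.8% in WA replicate 3 but 3.51% and 4.21% in WA replicates 1 and 2, where miR-30d-5p holds 58.2% and 61.3%.

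Ratios of members within a library do not depend on the size factor, apart from the value of 1 added to both. miR-30a-5p was present at 39.9, 11.0 and 10.4 times the level of miR-30e-5p in the vehicle libraries and 18.8 times in WA replicate 3. In WA replicates 1 and 2 the ratio was 0.265 and 0.279. miR-30a-3p to miR-30e-3p, the passengers of the same hairpins, ran in parallel at 13.0, 2.86 and 2.62, then 0.0401, 0.0601 and 12.8. The difference of mean log2 ratios was -3.90 for the guides and -3.87 for the passengers (two-sided exact permutation p = 0.3 for each). The differences were -5.94 and -6.55 without WA replicate 3. Leaving out WA replicate 1 instead gave -2.86 and -2.39. The ratio of miR-30d-5p to miR-30e-5p was 25.5, 6.19 and 9.34 with vehicle, against 4.38, 4.05 and 5.93 in the WA libraries. All 3 WA ratios were under the lowest vehicle ratio, with a log2 difference of -1.27 (two-sided exact permutation p = 0.1, the lowest this design can give) and of -1.43 without WA replicate 3. It was -0.69 without vehicle replicate 1. The ratios of miR-30a-5p and miR-30d-5p to miR-30e-5p were added after the values were seen. The ratio of miR-30b-5p to miR-30d-5p was 0.0102, 0.0247 and 0.0134 with vehicle, against 0.158, 0.0928 and 0.0189 in the WA libraries, with a log2 difference of 2.12 (two-sided exact permutation p = 0.2) and of 3.01 without WA replicate 3. WA replicate 3 lay within the vehicle range of this ratio.

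The ratio of guide to passenger was also read for MIR30A and MIR30E. miR-30a-5p to miR-30a-3p was 29.9, 29.96 and 21.6 in the vehicle libraries and 32.4 and 26.4 in WA replicates 1 and 2, although both strands were low there. The ratio in WA replicate 1 rests on 135 and 4 reads, a ratio of reads of 33.8 with an exact 95% binomial interval of 12.9 to 126 (counting error). It was 6.87 in WA replicate 3, under every other library, which left a log2 difference of -0.57 (two-sided exact permutation p = 0.7). Without that library the difference was 0.12. miR-30e-5p to miR-30e-3p was 9.69, 7.76 and 5.43 with vehicle, against 4.90, 5.68 and 4.67 in the WA libraries, a log2 difference of -0.55 (two-sided exact permutation p = 0.2), of -0.49 without WA replicate 3 and of -0.36 without vehicle replicate 1. Passenger strands made up 1.95% to 3.37% of all miR-30 reads in the vehicle libraries, 2.88% (95% Wilson interval 2.40 to 3.45) in WA replicate 1, 2.84% (2.58 to 3.13) in WA replicate 2 and 9.93% (9.77 to 10.1) in WA replicate 3.

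**Figure D4:**
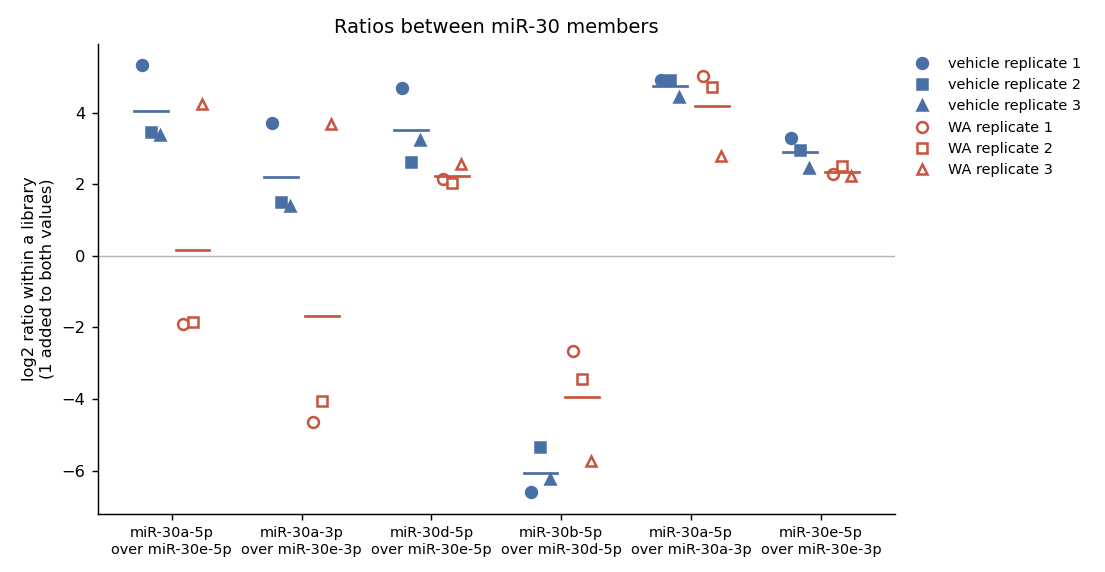
Log2 ratio between pairs of miR-30 members within each library (vertical axis, 1 added to both values), with vehicle libraries filled, WA libraries open and short lines at the group means. The ratios of miR-30a to miR-30e strands split WA replicates 1 and 2 from the other libraries, from 0.265 and 0.279 for the guides to 10.4 and above, while the miR-30e guide to passenger ratio stays between 4.67 and 9.69.

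The family as a whole took a smaller share of the library in WA replicates 1 and 2. All 10 members together held 12.7%, 6.59% and 6.24% of the reads in vehicle replicates 1 to 3. They held 2.53%, 2.57% and 6.52% in WA replicates 1 to 3, each out of the reads summed over the 413 miRNAs. The 95% Wilson intervals were within 0.078 percentage points of these values. WA replicate 3 lay within the vehicle range, and the difference of mean log2 shares was -1.21 (two-sided exact permutation p = 0.2). It was -1.66 without WA replicate 3. The guides alone held 12.4%, 6.38% and 6.03% in vehicle replicates 1 to 3 and 2.46%, 2.50% and 5.87% in WA replicates 1 to 3. For the guides every WA library, WA replicate 3 included, lay under every vehicle library. That share was read after the values were seen and was not tested. The let-7 and miR-98 guides, another large family from several loci, held 12.0% to 14.6% in the vehicle libraries and 19.8% to 26.5% in the WA libraries. The ratio of miR-30 to let-7 guide reads was 1.01, 0.437 and 0.501 with vehicle, against 0.124, 0.114 and 0.222 in the WA libraries. The groups did not overlap, and the log2 difference was -2.04 (two-sided exact permutation p = 0.1, the lowest this design can give) and -2.34 without WA replicate 3. This ratio was also added after the values were seen. The miR-26 guides held 1.12% to 2.34% and 1.06% to 2.57% of the vehicle and WA libraries, and the miR-29 strands 0.914% to 2.56% and 2.00% to 5.71%.

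Other miRNAs with textbook links to the epithelial state were read as a list. Of 10 miRNAs known to restrain the mesenchymal transition, 8 were in the table and passed the filter, and 0 had an adjusted p under 0.05 by limma (5.5% over all tested miRNAs) and 0 an unadjusted p under 0.05 (26.3%). Their log2 fold changes were over 0 for 3 and under 0 for 5, with a median of -1.66 beside -0.91 over all tested miRNAs, and 4 of them are the epithelial markers given above. Without WA replicate 3 these 4 were called lower, where 35.2% of all tested miRNAs were. In that fit 2 others were called higher, where 9.79% were. These were miR-203a-3p and miR-335-5p, named after their values were seen. The most abundant of the restraining list over the libraries, miR-101-3p, was at 291 to 2357 in the vehicle libraries and 245 to 1638 in the WA libraries. Of 6 known to promote the mesenchymal transition, all were in the table and 5 passed the filter. The one that did not was miR-155-5p, which reached 10 in WA replicates 1 and 2 alone, with the values given above. Of the 5, 1 was called by limma at an adjusted p under 0.05 with all 6 libraries (5.5% over all tested miRNAs). It was also called without WA replicate 3, where 35.2% of them were called lower. This was miR-10b-5p, which had vehicle values of 12.2, 10.9 and 15.3 and was at 0 in all WA libraries (limma adjusted p 0.0276). The call was lost without any one of vehicle replicates 2 and 3 and WA replicates 1 and 2, where no miRNA was called, and with a pseudocount of 10 (limma adjusted p 0.0688). In WA replicate 1 a count of 0 allows up to 17.4, above all 3 vehicle values. miR-21-5p, the most abundant of the promoting list, had vehicle values of 134806 to 403216 and WA values of 277045, 290979 and 27029.

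The miRNAs outside the family with the pattern most like a guide were found by the Pearson correlation of log2(normalized value + 1) over the 6 libraries, given as a description. For miR-30a-5p these were miR-1180-3p (0.995), miR-92b-5p (0.994) and miR-1304-3p (0.994). All 3 were at 0 in WA replicates 1 and 2, and at 661, 240 and 226 in WA replicate 3, so the correlations rest on the distance between those libraries and the rest. For miR-30b-5p it was miR-374a-5p (0.964), with vehicle values of 188 to 389 and WA values of 1565, 1058 and 224. For miR-30c-5p it was miR-222-3p (0.979), for miR-30d-5p miR-6511b-3p (0.987) and for miR-30e-5p miR-196a-5p (0.982). Within the family, miR-30a-5p had a correlation of 0.974 with miR-30a-3p, 0.986 with miR-30c-2-3p and -0.951 with miR-30b-5p. The correlation of miR-30e-5p was 0.907 with miR-30e-3p, 0.874 with miR-30c-1-3p, 0.967 with miR-30d-3p, which comes from another hairpin, and -0.215 with miR-30a-5p. In vehicle replicate 1 miR-30e-5p and miR-30e-3p had their lowest values, and miR-30c-1-3p and miR-30d-3p were at 0. The correlations of miR-30e-5p with these members thus lean on that library. None of the correlations was recomputed without vehicle replicate 1 or without WA replicate 3.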

How the data were processed

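The 3 vehicle and 3 WA small RNA libraries of MDA-MB-231 were used. Per the labels and methods, the authors trimmed reads (Trim Galore), aligned them with Bowtie to GRCh38.p10 and discarded reads from the remaining noncoding classes. What was left was assigned to mature human miRNAs of miRBase by homology and alignment without gaps (BLAST). Per the methods, the deposited signal is the number of reads divided by the authors' DESeq size factor. Columns of the authors' own comparison (p-values, log2 change, ratio) were not used. Within a library, 100% of values were an integer number of one step (tolerance 0.0001 steps), and steps were taken as reads. Single steps were held by no more than 1 miRNA in any library, too few low values to check this, so read numbers, floors and intervals are inferred.

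WA was compared with vehicle by limma 3.58.1 (R 4.3.3), trend on, unpaired and two-sided, over all 327 miRNAs reaching 10 in 3 or more libraries. Because the inferred reads could not be checked, no count model was fitted. Shares and ratios were compared by exact permutation tests (Python 3.11.15, scipy 1.17.1). The fit was tested on simulated data in which no library of a group was set apart. That test therefore does not cover a library like WA replicate 3. Every miR-30 row is named, with the non-family miRNA most correlated with each guide (3 for miR-30a-5p). Members and lists were chosen with earlier results of these data known. Ratios of miR-30a-5p and miR-30d-5p to miR-30e-5p, of the miR-30c passengers and of miR-30 to let-7, and miR-155-5p as an example, were added after the values were seen. Alternatives covered scaling, pseudocount, filter, variance trend, thinning to 156442 reads, the replicate number as a block and each library left out. Sequences of 3 members were not used here.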

Additional observations from a re-analysis of the deposited data

How the results depend on the processing

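The number of miR-30 members at a limma adjusted p under 0.05 was 0 under every scaling, pseudocount, filter, block, trend and thinning setting run, and ran from 0 to 4 with a library left out, the 4 coming without WA replicate 3. In that fit 147 of the 327 tested miRNAs were called. At an unadjusted p under 0.05 the number of members was 1 (miR-30a-5p) with total-count scaling, upper-quartile scaling, a pseudocount of 10 or 10 reached in every library, and from 0 to 4 with a library left out. Over all tested miRNAs the first 4 settings gave 87, 88 and 87 of 327 and 29 of 173, and a library left out 46 to 174 of 327. With the replicate block it was 2 members (miR-30a-5p and miR-30c-2-3p), against 84 of the 327 tested miRNAs. The block changed no call of a member at an adjusted p under 0.05. Correlations of deviations between same-numbered libraries were -0.0744, 0.0471 and -0.101. Over all pairs of a vehicle and a WA library they ran from -0.101 to 0.0918. With 3 libraries in a group, these values cannot show whether replicate numbers pair the libraries. The log2 difference of the miR-30a guide to passenger ratio ran from -0.997 to 0.12 with a library left out, the sign turning without WA replicate 3. Log2 fold changes turned sign without vehicle replicate 1 for miR-30c-1-3p (range over the libraries left out -0.55 to 1.83), miR-30c-5p (-1.30 to 0.0397), miR-30d-3p (-1.54 to 1.30) and miR-30e-5p (-0.24 to 0.56), and with a pseudocount of 10 for miR-30d-3p (-0.32). The cause was not tested. The other shares and ratios kept their direction in every alternative run. The median of all tested miRNAs (log2) moved by 0.81 where all 6 libraries had to reach 10, by -0.40 without the filter, by 0.32 without WA replicate 1, by -0.22 without vehicle replicate 1, by 0.30 with a pseudocount of 10, by 0.20 with thinning and by at most 0.0806 with the scalings. The median of the members, -0.19 as reported, was 0.08 with thinning and ran from -0.74 to 0.03 with a library left out. Over all tested miRNAs the count at an adjusted p under 0.05, 18 as reported, was 7 with a pseudocount of 0.1 and 7 with one of 10, 53 of 413 without the filter, 0 of 173 where all 6 libraries had to reach 10 (29 at an unadjusted p under 0.05), and from 0 to 147 with a library left out (46 to 174 at an unadjusted p under 0.05). WA replicate 1, with 156442 reads, limits what can be said of members with few reads.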
